A study of Arabidopsis thaliana with 6 samples.

Results

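In Arabidopsis seedlings given the CLE9 peptide, 74 of the 27416 genes in the deposited table were higher with CLE9 than with water in every pair of libraries of the same replicate number, and had a level in water replicate 2 close to that of the other water libraries. Among them are the ion channel gene CNGC10 and the calmodulin-binding kinase gene CRCK1, and 13 of the 74 encode protein kinases. The genes were chosen by their measured values, on the scale of log2(FPKM + 1), where FPKM is fragments per kilobase of transcript per 1e6 mapped fragments. A gene was taken if its mean over the 6 libraries was 2 FPKM or more, if CLE9 minus water was at least 0.8 in pairs 1, 2 and 3, and if water replicate 2 lay within 0.6 of the mean of water replicates 1 and 3. The difference between CLE9 and water, and the place of water replicate 2, are therefore conditions of the choice. They are given here as a description, with no test.

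The series holds 3 libraries of wild-type seedlings that received water (ddH2O) and 3 of wild-type seedlings that received CLE9 at 200 nM, all 7 days old. RNA came from seedlings with all their cell types mixed, so fewer cells of a type and less RNA per cell cannot be told apart. The labels give neither the duration of the treatment nor whether libraries of a group came from separate batches of plants. Estimated depth, in units of 1e6 fragments, ran from 20.8 to 31.7 per library and was lowest in CLE9 replicate 2.

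CLE peptides are short secreted signals that plants cut from larger precursors. They are perceived at the cell surface by leucine-rich repeat receptor kinases, and in Arabidopsis CLE9 is known from the stomatal lineage and the xylem. Downstream of many such receptors, calcium channels, calcium-binding kinases, MAP kinase cascades and lipid signals carry the response inward, and the same classes of protein serve immunity and wounding.

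Water replicate 2 stood apart from the other water libraries in genes of touch, wounding and immunity. There, a list of 16 touch, wounding and jasmonate genes had a median 4.10 log2 units above the mean of water replicates 1 and 3. A list of 25 measured genes of pattern-triggered immunity had a median 2.82 above it. Over all 16013 genes averaging at least 2 FPKM the median was -0.18. Both lists were chosen with earlier results of these data known, so their medians are a description. The band of 0.6 leaves out genes with such a high water replicate 2. Of the 16013 genes averaging at least 2 FPKM, 552 were higher by 0.8 or more in each pair. In 471 of these, water replicate 2 lay above the band, in 7 below it, and in 74 inside it. The mirror rule, for genes lower with CLE9, gave 34 genes.

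**Figure D1:**
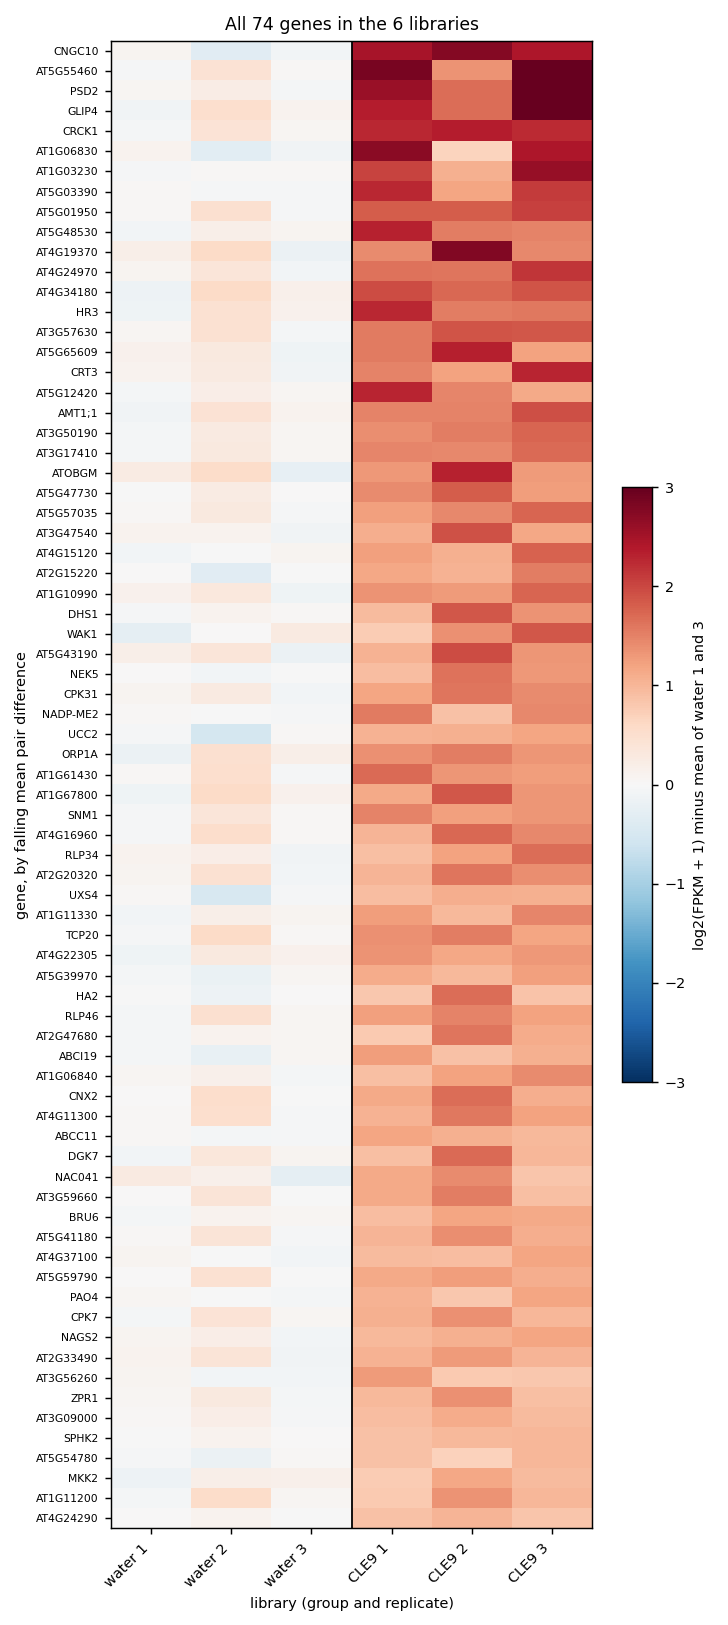
Each row is one of the 74 genes, ordered by the mean of the 3 pair differences, and each column a library. Colour gives log2(FPKM + 1) minus the mean of water replicates 1 and 3, and the colour scale ends at 3, so the 3 darkest cells of CLE9 replicate 3 lie beyond it. The 3 water columns stay pale by the rule, and the CLE9 columns differ among themselves, most in the upper rows.

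At the thresholds, the members with the lowest mean level were AT1G30420 at 2.13 FPKM and RLP34 at 2.23 FPKM, while AT1G14260 at 1.81 FPKM and ZIP9 at 1.73 FPKM fell outside. The smallest pair differences inside were 0.801 for AT1G11330 and 0.802 for RLP34, and AT5G28830 and WAG1 missed at 0.799. For the band, AT4G34180 (0.586) and AT1G67800 (0.572) were the farthest inside, and AT4G15260 (0.602) and AAC2 (0.620) the nearest outside.

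The mean of the 3 pair differences ran from 0.86 to 2.66 with a median of 1.25, and 65 genes reached 1, 18 reached 1.5 and 6 reached 2. Over all 17812 genes tested the median difference was -0.05. The 74 genes had a median of 4.78 FPKM with water and 13.4 FPKM with CLE9. Mean levels with CLE9 were 10 FPKM or more in 48 genes and 100 FPKM or more in 9, and 17 genes were below 2 FPKM with water. In a limma fit with group only, adjusted by Benjamini-Hochberg, 0 of the 74 passed as higher, as did 0 of all 17812 genes (percent called 0; 0.00561 in either direction), while 74 and 1039 (5.83%) had an unadjusted p under 0.05 as higher. With the replicate number as a block, limma called 47 of the 74 higher, against 311 of all genes (1.75%). The lowest CLE9 library was above the highest water library in all 74, and in 1516 of all genes tested (8.51%). The rule used this same contrast, so nothing is read from these counts.

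Promoters were read from RefSeq (TAIR10.1), from 250 bases before the annotated start to 50 after it, and searched on both strands. All 74 genes had one. The letters TTGAC, the core of the W box that WRKY transcription factors bind, were in 51 of the 74 promoters (68.9%), in 77.7% of the 471 and in 51.4% of all genes averaging at least 2 FPKM. At least 2 matches stood in 18 of the 74, 242 of the 471 and 2975 of the 15924 genes averaging at least 2 FPKM that had a promoter. The extended forms TTGACT and TTGACC, which contain TTGAC, were in 39.2% and 24.3% of the 74, 49.0% and 30.6% of the 471, and 22.5% and 14.7% of all. CGCGT, letters found in the calmodulin-binding CAMTA factors' sites, were in 2 of the 74 (2.70%), 83 of the 471 (17.6%) and 9.82% of all. TGACG, which can overlap TTGAC, was in 29.7%, 26.1% and 23.9%. CACGTG was in 4.05%, 3.82% and 8.93%, GCCGCC in 1.35%, 4.46% and 2.66%, and AAAATATCT in 4.05%, 2.76% and 3.09%. A match is a string of letters and does not show that a factor binds there.

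The 250 bases before the start are printed, 5′ to 3′ on the gene's strand, for 4 genes with several matches and 2 with none, picked after the matches were seen from promoters that touch no annotated exon. Capitals mark TTGAC or its reverse complement GTCAA.
AT5G03390 (chr5:834609-834858, plus strand): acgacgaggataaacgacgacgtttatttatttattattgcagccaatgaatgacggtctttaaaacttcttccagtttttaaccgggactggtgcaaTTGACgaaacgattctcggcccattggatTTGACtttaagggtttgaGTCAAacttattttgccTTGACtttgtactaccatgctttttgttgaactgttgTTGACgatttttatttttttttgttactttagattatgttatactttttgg
GLIP4 (chr3:4735994-4736243, minus strand): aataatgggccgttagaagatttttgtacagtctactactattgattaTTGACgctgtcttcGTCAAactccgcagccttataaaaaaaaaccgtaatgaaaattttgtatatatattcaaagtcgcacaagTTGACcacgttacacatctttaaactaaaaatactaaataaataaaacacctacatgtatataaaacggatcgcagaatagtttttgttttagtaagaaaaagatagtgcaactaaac
CPK31 (chr4:2384122-2384371, minus strand): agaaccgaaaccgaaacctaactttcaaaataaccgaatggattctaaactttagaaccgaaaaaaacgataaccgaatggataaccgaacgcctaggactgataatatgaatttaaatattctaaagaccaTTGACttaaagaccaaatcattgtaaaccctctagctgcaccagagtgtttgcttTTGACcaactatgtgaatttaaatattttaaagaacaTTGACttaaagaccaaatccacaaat
MKK2 (chr4:14595385-14595634, minus strand): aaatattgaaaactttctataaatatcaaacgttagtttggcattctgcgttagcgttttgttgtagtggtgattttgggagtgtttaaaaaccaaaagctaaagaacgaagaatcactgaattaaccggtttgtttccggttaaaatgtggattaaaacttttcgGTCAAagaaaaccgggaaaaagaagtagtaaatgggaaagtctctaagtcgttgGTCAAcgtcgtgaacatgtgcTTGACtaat
CRCK1 (chr5:23797196-23797445, plus strand): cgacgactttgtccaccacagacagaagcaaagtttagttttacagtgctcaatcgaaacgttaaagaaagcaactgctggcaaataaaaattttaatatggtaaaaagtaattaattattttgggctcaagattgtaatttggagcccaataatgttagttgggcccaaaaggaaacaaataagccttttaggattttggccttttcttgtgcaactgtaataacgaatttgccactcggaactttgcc
NADP-ME2 (chr5:3753841-3754090, plus strand): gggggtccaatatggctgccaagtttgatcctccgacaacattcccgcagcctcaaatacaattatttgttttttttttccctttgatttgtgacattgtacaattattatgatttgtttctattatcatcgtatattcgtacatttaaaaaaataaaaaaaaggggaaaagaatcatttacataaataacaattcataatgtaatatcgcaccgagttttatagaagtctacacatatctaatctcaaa
AT5G03390 holds 5 matches within 152 bases of its start, and GLIP4, CPK31 and MKK2 hold 3 each. The CRCK1 and NADP-ME2 stretches hold none. The CRCK1 stretch precedes the RefSeq start, which lies upstream of the start in the deposited table, so it does not adjoin the latter.

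CNGC10 encodes a cyclic nucleotide gated channel of the plasma membrane, a family that passes calcium and other cations. It lies at chromosome 1, 132328 to 135831 in the table's coordinates (TAIR10) and had the largest mean difference of the 74 with a pseudocount of 1. With a pseudocount of 0.5 GLIP4 (2.84) exceeded CNGC10 (2.81), and with 0.1 GLIP4 (3.64), PSD2 (3.36) and AT5G55460 (3.04) exceeded it (2.935). It was at 4.34, 2.97 and 3.7 FPKM with water and 26.8, 33.0 and 25.8 FPKM with CLE9. Water replicate 2 was the lowest of the 6 libraries and CLE9 replicate 2 the highest, and the mean difference was 2.66 ± 0.38 (SD over the 3 pairs).

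CNGC10 belongs to a list of 20 cyclic nucleotide gated channel genes, of which 15 were tested. In that list limma with group only called 0 genes in either direction and the blocked fit called 2 higher, CNGC10 and CNGC13, and 0 lower. CNGC3, CNGC11, CNGC13 and CNBT1 also met the pair conditions, but with a high water replicate 2. CNGC3 was at 0.858, 9.92 and 1.13 FPKM with water and 20.8, 28.9 and 25.7 FPKM with CLE9, and CNGC13 at 3.13, 14.8 and 3.52 FPKM with water and 16.7, 44.2 and 13.9 FPKM with CLE9. The water libraries of CNGC10 span 2.97 to 4.34 FPKM, whereas those of CNGC3 span 0.858 to 9.92 FPKM. The band on water replicate 2 took CNGC10 and left out CNGC3, so this contrast restates the rule. CNGC2, listed as DND1, and CNGC4 are channels of the immune response whose mutants have constitutive defence, and both had lower values with CLE9 in each pair, without passing either fit. DND1 was at 41.2, 44.7 and 44.0 FPKM with water and 32.4, 23.8 and 32.5 FPKM with CLE9.

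Protein kinases made up the largest group. Their mean differences ran from 0.90 to 2.15. In all 13, CLE9 replicate 2 lay within 0.6 of the mean of CLE9 replicates 1 and 3. The same held for 75.7% of the genes taken by the rule and 56.3% of all genes averaging at least 2 FPKM. The place of CLE9 replicate 2 follows from quantities the rule used, so nothing is read from it. CRCK1 is a receptor-like cytoplasmic kinase that binds calmodulin (chromosome 5, 23798562 to 23800823). It was at 2.39, 3.65 and 2.64 FPKM with water and 16.0, 17.0 and 15.6 FPKM with CLE9. Its 3 CLE9 libraries lay between 15.6 and 17.0 FPKM, and no water library exceeded 3.65 FPKM. The other CRCK genes had a high water replicate 2, with 37.7, 109 and 33.2 FPKM for CRCK2 and 7.92, 20.2 and 8.4 FPKM for CRCK3 in the water libraries. Both were also higher with CLE9 in each pair. Their CLE9 libraries were at 96.0, 272 and 108 FPKM for CRCK2 and 16.7, 32.9 and 19.6 FPKM for CRCK3.

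Among membrane kinases, the leucine-rich repeat kinase gene AT5G01950 (chromosome 5, 364902 to 370186) was at 7.42, 10.6 and 7.03 FPKM with water and 28.0, 28.0 and 33.2 FPKM with CLE9. Another leucine-rich repeat kinase gene, AT1G06840, was at 8.22, 8.75 and 7.41 FPKM with water and 15.4, 19.4 and 22.5 FPKM with CLE9. WAK1, a wall-associated kinase that binds pectin, was at 1.22, 1.71 and 2.25 FPKM with water and 3.56, 5.99 and 8.71 FPKM with CLE9. In WAK1, as in all 74 genes, the lowest CLE9 library was above the highest water library, here 3.56 FPKM against 2.25 FPKM. Wall-associated kinase genes have near-identical neighbours, between which reads may have been divided. The lectin kinase genes of the S-locus type, AT1G61430 and AT1G11330, had mean differences of 1.25 ± 0.42 and 1.18 ± 0.33, and the leucine-rich repeat kinase gene AT5G41180 one of 1.04 ± 0.09.

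Among kinases inside the cell, AT3G17410 was the most abundant, at 57.7, 73.8 and 62.2 FPKM with water and 166, 166 and 198 FPKM with CLE9. CPK31, a calcium-dependent protein kinase, was at 4.26, 5.02 and 3.72 FPKM with water and 10.3, 14.2 and 12.3 FPKM with CLE9. A second gene of that family, CPK7, was at 15.7, 22.0 and 17.0 FPKM with water and 35.5, 44.2 and 33.4 FPKM with CLE9. MKK2, a MAP kinase kinase that acts on MPK4 in Arabidopsis, was at 16.4, 20.9 and 20.4 FPKM with water and 31.8, 42.3 and 36.4 FPKM with CLE9. The groups do not overlap in these 4 genes, as in all 74 and in 8.51% of all genes tested. The rule used this contrast, so nothing is read from it. MKK2 had the smallest mean difference of the 13 kinase genes, 0.90 ± 0.09. NEK5 and the U-box kinase gene AT5G57035 had mean differences of 1.31 ± 0.39 and 1.38 ± 0.36. The kinase-less receptor-like proteins RLP34 and RLP46 were low, at 0.932 ± 0.196 FPKM with water and 3.53 ± 1.27 FPKM with CLE9 and 3.23 ± 0.875 FPKM with water and 8.24 ± 1.03 FPKM with CLE9 (SD, n = 3).

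Counted by keywords in RefSeq product names, kinases and receptors were 18 of the 74 genes (24.3%). This class also takes in the lipid kinases DGK7 and SPHK2, the receptor-like proteins RLP34 and RLP46 and the ATPase gene AT4G24970. The same keywords gave 83 of the 471 genes with water replicate 2 above the band (17.6%) and 5.93% of all genes averaging at least 2 FPKM. The class of disease resistance and other defence proteins held 1 of the 74 (1.35%), 18 of the 471 (3.82%) and 0.906% of all. Transcription factors were 2 of the 74 (2.70%), 17 of the 471 (3.61%) and 4.28% of all, and glycosyl and cell wall enzymes 0 of the 74, 10 of the 471 (2.12%) and 288 of all 16013. No keyword matched 43 of the 74.

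**Figure D2:**
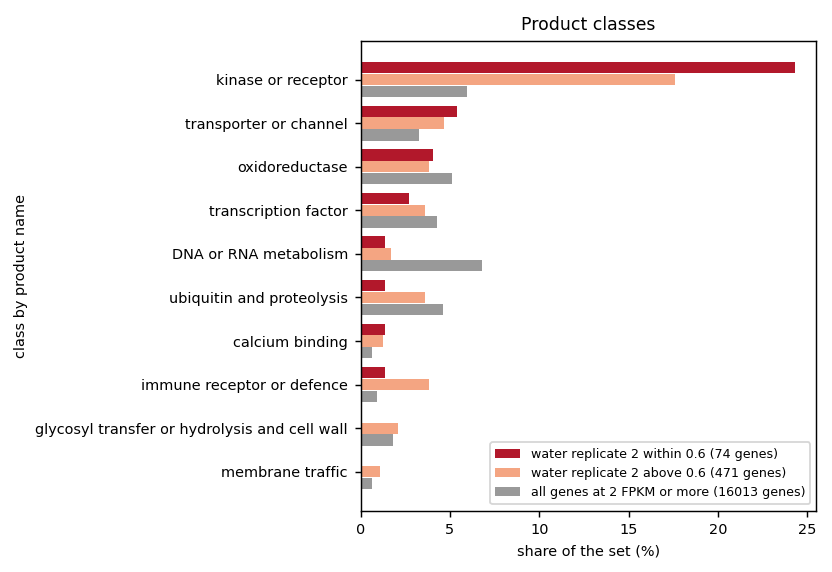
Bars give the share of genes (%) in each product class for the 74 genes, for the 471 genes with water replicate 2 above the band, and for all 16013 genes averaging at least 2 FPKM. Kinases and receptors have the longest bars for the 74 and the 471 genes, at 24.3% and 17.6%, while over all genes DNA or RNA metabolism (6.79%) exceeds them (5.93%). Genes that no keyword matched are not drawn.

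Of the 74, 8 genes were grouped by annotation as acting on lipids or carrying them. PSD2 makes phosphatidylethanolamine from phosphatidylserine. It was at 0.617, 0.817 and 0.496 FPKM with water and 8.4, 4.0 and 12.002 FPKM with CLE9, so every water library was below 1 FPKM and CLE9 replicate 2 was the lowest CLE9 library. GLIP4, a lipase gene of the GDSL type with 3 TTGAC matches in the stretch printed above, was at 0.177, 0.801 and 0.361 FPKM with water and 5.47, 3.05 and 12.7 FPKM with CLE9. The lipid transfer protein gene AT5G55460 was at 0.929, 1.67 and 1.05 FPKM with water and 13.3, 4.01 and 21.0 FPKM with CLE9. In all 3 genes CLE9 replicate 2 was the lowest CLE9 library and, as in all 74 genes, above every water library. The lowest library of GLIP4 stands for about 6.19 fragments, and that of AT5G55460 for about 16.8, so their low values are imprecise. DGK7 and SPHK2, which phosphorylate diacylglycerol and sphingosine, were at 4.84 ± 0.836 FPKM with water and 11.7 ± 4.09 FPKM with CLE9 and at 9.27 ± 0.471 FPKM with water and 18.3 ± 0.861 FPKM with CLE9 (SD, n = 3). ORP1A, an oxysterol-binding protein gene, the Sec14-type transfer gene AT5G47730 and the acyltransferase gene AT5G12420 had mean differences of 1.26 ± 0.25, 1.41 ± 0.16 and 1.56 ± 0.68.

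Transport genes included some of the most abundant. AMT1;1, a high-affinity ammonium transporter, was at 70.4, 102 and 81.4 FPKM with water and 213, 213 and 293 FPKM with CLE9. Its relatives AMT1;2 and AMT1;3, also root ammonium transporters, had mean differences of -0.54 and -0.79, lower in each pair, and AMT2 had one of 1.26, higher in each pair. None of these 3 passed either fit, and AMT1;1 itself passed neither. HA2, the plasma membrane proton pump AHA2, was at 138, 125 and 140.2 FPKM with water and 243, 449.7 and 253 FPKM with CLE9. CLE9 replicate 2 was far above the others there, and CLE9 replicates 1 and 3 exceeded their water partners by 0.81 and 0.85, just past the threshold. HA1, the most abundant other pump gene, was at 286, 223 and 283 FPKM with water and 246, 317 and 272 FPKM with CLE9. The 6 pump genes averaging at least 2 FPKM other than HA2, HA1 included, had mean differences between -0.48 and 0.23. Of these 6, 1 was higher and 2 were lower with CLE9 in each pair. The ABC transporter genes ABCI19 and AT1G30420 were at 2.33 ± 0.323 FPKM with water and 6.32 ± 0.974 FPKM with CLE9 and at 0.993 ± 0.0782 FPKM with water and 3.28 ± 0.292 FPKM with CLE9 (SD, n = 3), and the solute transporter gene AT1G11200 had a mean difference of 0.87 ± 0.06. AT1G30420 has a close copy in the genome, and reads may have been divided between the copies.

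Among enzymes of primary metabolism, NADP-ME2, which turns malate into pyruvate and makes NADPH in the cytosol, was at 164, 161 and 158 FPKM with water and 475, 297 and 440.0 FPKM with CLE9. The 3 water libraries lay between 158 and 164 FPKM, and the lowest CLE9 library was replicate 2. DHS1, the first enzyme of the shikimate pathway that leads to aromatic amino acids, was at 25.8, 28.5 and 26.7 FPKM with water and 51.5, 98.7 and 68.3 FPKM with CLE9. Here CLE9 replicate 2 was the highest. DHS2, for the same step, was at 65.6, 79.9 and 73.5 FPKM with water and 70.8, 63.3 and 64.8 FPKM with CLE9. UXS4, which makes UDP-xylose for the cell wall, was at 48.2, 33.1 and 45.2 FPKM with water and 88.9, 99.9 and 98.3 FPKM with CLE9, while 4 other UXS genes had mean differences between -0.08 and 0.05. The peroxisomal polyamine oxidase gene PAO4 had a mean difference of 1.01 ± 0.21, NAGS2 of arginine synthesis one of 1.01 ± 0.21, and CNX2 of molybdenum cofactor synthesis one of 1.12 ± 0.01, the smallest spread of all 74 genes.

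**Figure D3:**
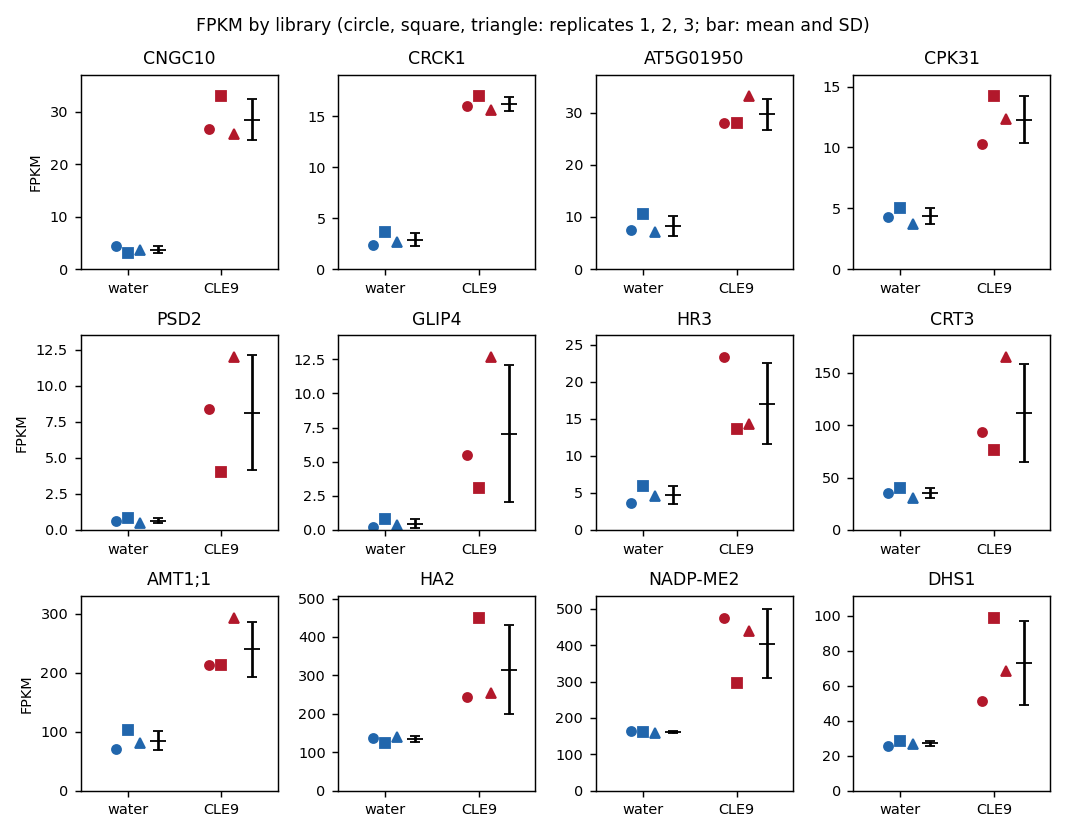
FPKM of 12 of the 74 genes by library, on linear axes that start at 0 and differ between panels, with circles, squares and triangles for replicates 1, 2 and 3 and black bars for the mean and SD of each group (n = 3). The lowest CLE9 library is above the highest water library in each panel, as in all 74 genes. CLE9 replicate 2 is the lowest CLE9 library for PSD2, GLIP4, HR3, CRT3 and NADP-ME2. It is the highest for CNGC10, CRCK1, CPK31, HA2 and DHS1.

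Defence proteins other than kinases and receptor-like proteins were 5. CRT3 is an endoplasmic reticulum calreticulin that the Arabidopsis immune receptor EFR needs to fold. It was at 35.2, 39.6 and 30.7 FPKM with water and 93.3, 76.6 and 165 FPKM with CLE9. CRT1a and CRT1b, calreticulins of general folding, had mean differences of -0.04 and -0.16, and CRT1a was at 92.9, 92.6 and 93.9 FPKM with water and 75.5, 119 and 83.0 FPKM with CLE9. In a list of 10 folding genes of the endoplasmic reticulum, all tested, limma called 0 in either direction with group only and 0 with the block. CRT3 was the 1 gene of that list among the 74. The luminal chaperone gene BIP2 was at 44.9, 72.1 and 52.4 FPKM with water and 60.9, 197 and 45.2 FPKM with CLE9, high in CLE9 replicate 2 where CRT3 was at its lowest with CLE9.

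HR3, a homolog of the mildew resistance gene RPW8, was at 3.62, 5.95 and 4.55 FPKM with water and 23.3, 13.6 and 14.3 FPKM with CLE9. Its neighbour HR4 was at 145, 649 and 151 FPKM with water and 472, 2099 and 354 FPKM with CLE9, with water replicate 2 above CLE9 replicates 1 and 3, and reads of these similar neighbours may have been divided. The chitinase family gene AT3G47540, the VQ motif gene AT4G15120 and the TIR-type resistance gene AT4G16960 had mean differences of 1.36 ± 0.42, 1.36 ± 0.31 and 1.22 ± 0.17. None of the pattern-triggered immunity list (26 genes, 25 tested), the touch, wounding and jasmonate list (16 tested) or the salicylic acid and pipecolate list (12 genes, 8 tested) was among the 74. In these lists limma with group only called 0 genes in either direction. The blocked fit called 7, 0 and 1 genes higher in these lists in that order, and 0 lower in each. Water replicate 2 was above the band in 24 of 25, 16 of 16 and 6 of 8 of them.

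The 3 transcription regulators were TCP20, a TCP factor, at 4.74 ± 1.37 FPKM with water and 11.8 ± 1.61 FPKM with CLE9, NAC041 at 11.98 ± 2.47 FPKM with water and 26.3 ± 5.36 FPKM with CLE9, and ZPR1, a little zipper protein that binds HD-ZIP III factors, at 7.64 ± 1.06 FPKM with water and 16.2 ± 3.18 FPKM with CLE9 (SD, n = 3). Others with large differences were the aspartyl protease gene AT1G03230, at 29.7, 31.7 and 31.7 FPKM with water and 128, 65.1 and 194 FPKM with CLE9, and the glutaredoxin gene AT1G06830, at 1.84, 1.11 and 1.43 FPKM with water and 16.0, 3.2 and 13.05 FPKM with CLE9. In both, CLE9 replicate 2 was the lowest CLE9 library, at -1.26 and -1.88 log2 units from the mean of the other CLE9 libraries. The cyclase family gene AT4G34180 was at 57.4, 95.9 and 70.4 FPKM with water and 250.1, 211 and 236 FPKM with CLE9. UCC2, a copper-binding uclacyanin gene, had the highest mean with CLE9 of the 74, at 210.2, 149 and 221 FPKM with water and 445, 453 and 493 FPKM with CLE9.

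The remaining genes with large differences have little annotation. AT5G03390, AT5G48530, AT4G19370 and AT3G50190 had mean differences of 1.86 ± 0.56, 1.72 ± 0.58, 1.69 ± 0.48 and 1.47 ± 0.20. The ATPase gene AT4G24970 and the exostosin gene AT3G57630 had differences of 1.66 ± 0.50 and 1.62 ± 0.26. AT5G65609, at 1.60 ± 0.38, rests on about 6.73 fragments in its lowest library. The pairs differed least in CNX2, AT5G39970 (1.17 ± 0.02), AT4G24290 of the perforin-like family (0.86 ± 0.03), AT3G09000 (0.92 ± 0.04) and AT5G54780 of the Rab-GAP family (0.91 ± 0.04).

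**Figure D4:**
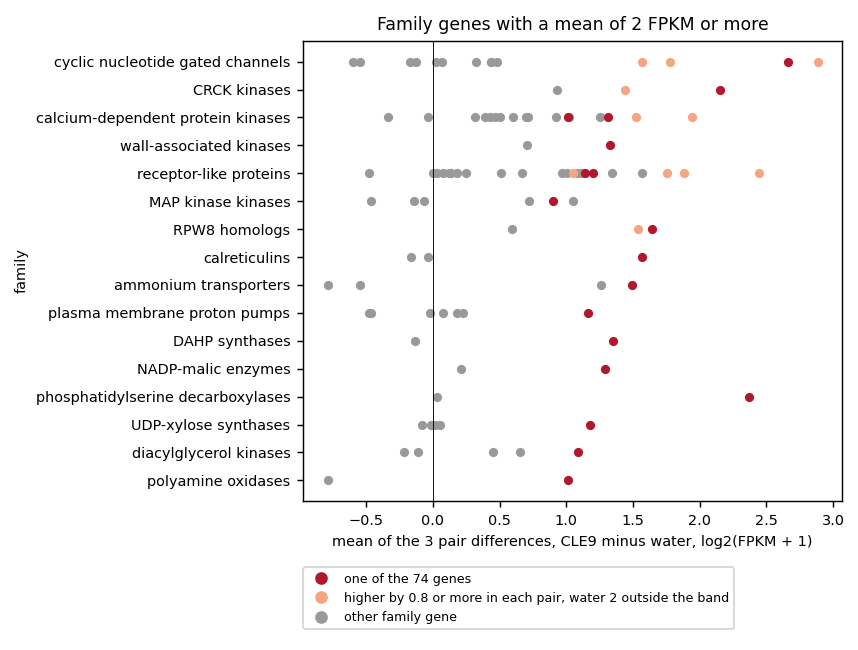
Each point is a gene averaging at least 2 FPKM, placed by the mean of its 3 pair differences on the log2(FPKM + 1) scale, in 16 families chosen after the values were seen. Dark red marks the 74 genes, light red genes that met the pair conditions with water replicate 2 outside the band, and grey the rest. UXS4, HA2 and CRT3 lie to the right of family genes near 0.

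The place of CLE9 replicate 2 against the other CLE9 libraries follows from quantities the rule used. It equals the shift of water replicate 2 plus the pair 2 difference minus the mean of the pair 1 and pair 3 differences, so its values are a description, and the contrast between the 74 and the 471 largely restates the band. It lay within 0.6 of the mean of CLE9 replicates 1 and 3 in 56 of the 74 genes (75.7%), above in 10 and below in 8. Among the 471 genes with water replicate 2 above the band, it lay within 0.6 in 85 (18.05%) and above in 373 (79.2%). Over all genes averaging at least 2 FPKM, 56.3% lay within. The median shift was 0.06 in the 74 genes, 1.30 in the 471 and -0.22 in all. The band itself did not centre the 74 genes. Water replicate 2 was above the mean of the other water libraries in 57 of the 74, with a median shift of 0.26, against -0.18 in all genes.

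The 8 genes lower in CLE9 replicate 2 were AT1G06830, AT5G55460, AT1G03230, GLIP4, PSD2, AT5G03390, CRT3 and NADP-ME2. The 10 higher were AT4G19370, ATOBGM, AT5G65609, HA2, AT5G43190, AT3G47540, DGK7, DHS1, AT2G47680 and AT1G67800. Tissue markers moved in the same library, and some of them also in water replicate 2. All 4 leaf photosynthesis markers were at their lowest of the 6 libraries in CLE9 replicate 2, with a summed level of 15960 FPKM against 31170 to 43690 in the other CLE9 libraries and 33500 to 39030 with water. The 5 root markers summed to 40.1 FPKM in CLE9 replicate 2, against 72.2 and 82.3 in the other CLE9 libraries and 46.1 to 78.05 with water (none was at 0 in all libraries). Of these 5, 2 were at their lowest in CLE9 replicate 2. For 3 of the 5 root markers, and 2 of the 4 leaf markers, the lowest 2 libraries were water replicate 2 and CLE9 replicate 2. The endodermal gene CASP1 was at 2.43 FPKM in CLE9 replicate 2 and at 33.4 and 34.8 FPKM in the other CLE9 libraries. With water it was at 41.0, 14.8 and 33.05 FPKM in replicates 1, 2 and 3. In CLE9 replicate 2 SCR was at 24.96 FPKM against 23.3 and 32.3 FPKM in the other CLE9 libraries, and SHR at 11.8 FPKM against 11.3 and 10.8 FPKM. The 3 guard cell markers summed to 15.6, 31.8 and 30.5 FPKM with CLE9 and 18.9 to 21.03 FPKM with water. Their part in the values of the 74 genes was not tested.

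**Figure D5:**
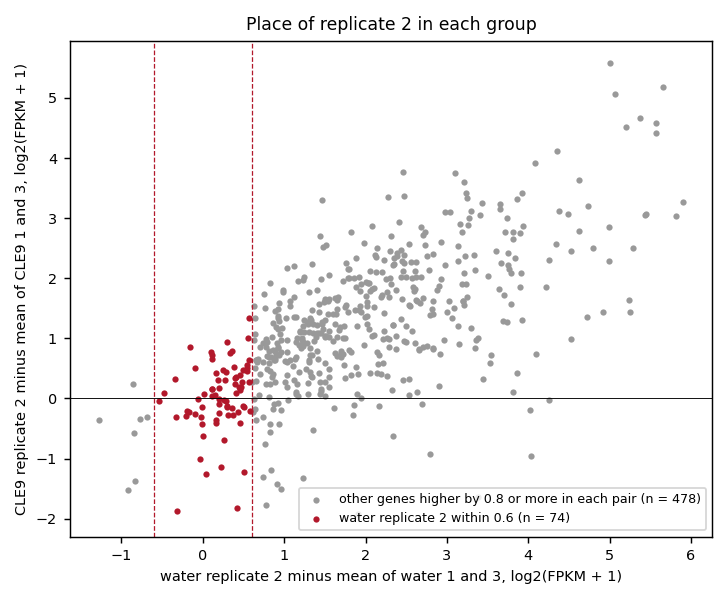
Each point is one of the 552 genes higher by 0.8 or more in each pair. The horizontal axis is water replicate 2 minus the mean of water replicates 1 and 3 and the vertical axis CLE9 replicate 2 minus the mean of CLE9 replicates 1 and 3, both in log2(FPKM + 1), and dashed lines mark the band. The 74 genes in red have a median near 0 on the vertical axis (0.06), and the others lie mostly above 0.

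In gene structure, the 74 had a median of 7 exons and 2077 bases of exon, against 3 exons and 1783 bases in the 471 and 5 exons and 1783 bases in all genes averaging at least 2 FPKM. They were spread over the nuclear chromosomes, with 15, 10, 13, 19 and 17 genes on chromosomes 1 to 5. Within 20 kb of each other lay 3 pairs. AT1G06830 and AT1G06840 on chromosome 1 point towards each other, 91 bases apart, and NAC041 and AT2G33490 on chromosome 2 follow each other on one strand, 1149 bases apart. UXS4 and AT2G47680 are separated by 2 genes. Another gene of the table overlaps 9 of the 74, among them AT5G55460, UXS4 and RLP34. No source used here says if strand was used in counting, so reads of such neighbours cannot be told apart.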

How the data were processed

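The authors deposited 1 table of FPKM per gene for the 6 libraries, as its header names them. Per the submitters' processing notes, the build was TAIR10 and the tools included DESeq2 1.16.1, featureCounts 1.5.0-p3, StringTie 1.3.3b, HISAT2 2.0.5 and CASAVA 1.8, with no role or order. Which of them gave the FPKM is not given.

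Values were analysed as log2(FPKM + 1), which understates the change of low genes. The 17812 genes averaging at least 1 FPKM were fitted with limma 3.58.1 in R 4.3.3, group only, empirical Bayes with a mean-variance trend, two-sided, adjusted by Benjamini-Hochberg, called at an adjusted p under 0.05. Since nothing says that libraries came from separate plants, p-values measure only their spread, possibly technical. The fit and the rule were also run on simulated data. The fit with group only recovered 94 of 100 genes planted at a log2 change of 1 and 100 of 100 at 2. The fit with the replicate block recovered 85 and 98. False calls numbered 9 and 14 in these fits. In the measured data the fit with group only called 1 of 17812 genes. Recovery in the simulation does not show how many changes the fit can find in these libraries. The genes, lists and roles were chosen with earlier results of these data known. Genes were named for the 20 largest differences, 5 highest levels, 5 smallest spreads, the lists and the thresholds. Other members of role groups, and family genes, were named after their values were seen.

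Libraries were paired by the replicate numbers in the labels, as in the rule. Same-numbered libraries of both groups correlated at 0.545, 0.743 and 0.583 in their deviations from group means. The crossed values were 0.664 for water replicate 1 and CLE9 replicate 3 and 0.62 for water replicate 3 and CLE9 replicate 1, both above the same-numbered values of these replicates. With replicate 2 apart in both groups, these values cannot decide the pairing of replicates 1 and 3. Depth was estimated from FPKM times length in single-exon genes with 1 to 3 fragments. Between 43.6% and 48.9% of those values were whole within 0.1 fragments, so the depths are approximate and reads were not recovered. Fragments per gene use these depths. Of the table's genes 26714 matched RefSeq (TAIR10.1) by locus, 34% with the same start, so promoter coordinates are those of RefSeq.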

Additional observations from a re-analysis of the deposited data

How the results depend on the processing

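The rule gave 74 genes. It gave 32 with a pair difference of at least 1, 39 with a band of 0.3, and 57 to 87 with other pseudocounts, level minimums or quantile normalization. Dropping the conditions that need 1 library gave 100 to 195 genes, with 126 without water replicate 1, 123 without CLE9 replicate 1 and 195 without CLE9 replicate 2. Swapping CLE9 replicates 1 and 3 between the pairs, a choice made after seeing the data, gave 75 genes, 67 of them among the 74. The median change of the 74 genes, 1.25, was 1.43 and 1.34 with pseudocounts of 0.1 and 0.5, and 1.19 to 1.33 without single libraries. These follow from the construction of each alternative.

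The limma count over all genes was 1 with group only (1586 at an unadjusted p under 0.05), 355 with the replicate block, 2 with quantile normalization, and 0 to 204 without single libraries, with 204 without water replicate 2 and 0 without water replicate 1, CLE9 replicate 1 or CLE9 replicate 3. Of the 74 genes, 0 were called with group only, 47 with the replicate block, 1 with quantile normalization, and 0 to 7 without single libraries (7 without water replicate 2). Without both replicate 2 libraries, added after seeing the data, 2024 genes were called in either direction. As higher, 1498 of 17812 genes (8.41%) were called. Among them were 73 of the 74, and 465 of the 471 genes with water replicate 2 above the band (98.7%). The rule required a difference in pairs 1 and 3, which this fit uses, so nothing is read from the 73 or the 465. The cause of the larger count over all genes was not tested. Of 456 values of single named genes under 12 alternatives, 0 changed sign and 48 moved by more than the spread over the pairs, 15 of them with a pseudocount of 0.1. The named genes were taken by the rule or lay just outside a threshold. Their sign was thus fixed by the choice, and nothing is read from the 0. Depth limits GLIP4, AT5G65609, AT1G06830 and AT5G55460, each under 20 fragments in some library.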
